A study of Caenorhabditis elegans with 6 samples.

Results

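Chromosome III carried 990 of the 6029 binding sites listed for the nuclear receptor NHR-25 in L2 larvae of Caenorhabditis elegans. They are all intervals that the combined list of the series places on that chromosome, whatever their strength, and they form 946 separate regions once overlapping intervals are joined. By midpoint, 599 sites lay in the centre, between 3.72 and 10.34 Mb, 238 in the right arm beyond 10.34 Mb and 153 in the left arm before 3.72 Mb. Positions are coordinates of the WormBase release WS220.

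The study used chromatin immunoprecipitation followed by sequencing (ChIP-seq), in which proteins are fixed to DNA, the chromatin is broken up, and the DNA held by an antibody is sequenced. Hermaphrodites of strain OP33 were grown at 20 °C and fixed as L2 larvae. All samples carry the unc119(ed3) allele and the integrated transgene wgIs33, which was introduced by bombardment and holds nhr-25 fused to TY1, EGFP and FLAG tags together with an unc119 marker. The 6 samples are 3 ChIP replicates, collected with antibodies against GFP, and 3 input replicates of the same chromatin. The input samples were not analysed here, and no untagged strain is among the samples, so none of the values below has a background level beside it. Nothing in the labels ties the replicates to separate worm cultures, and the spread between them may be technical. Whole larvae were used. A site bound in fewer cells and a site bound more weakly in each cell cannot be told apart.

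NHR-25 belongs to the NR5 nuclear receptors, as do FTZ-F1 of Drosophila and, in mammals, SF-1 and LRH-1. Receptors of this family can bind DNA as monomers, and NHR-25 is known for roles in epidermal cells, molting and vulval development. Worm autosomes have a centre with little meiotic recombination and arms with much more. The centres are known to be rich in highly conserved genes, whereas the arms carry more repeats and more of the histone marks of silent chromatin.

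The files give each interval a peak number and a value. The peak number is the authors' order within a list, with 1 as the first, and the value, an estimated false discovery rate on a −log10 scale, stops at a ceiling shared by many peaks. On chromosome III, 748 sites (75.6%) were at the ceiling of the combined list, against 75.4% of all combined sites, so the peak number was used to order them. Below, strong and weak mean early and late in this order, and the strength of binding was not measured. No genome sequence or gene annotation of this build was used here, so no gene or motif is named for a site. Each replicate list runs far down into weak calls. The first 6029 peaks of a replicate, as many as the combined list holds, are therefore called its top list, and they included 990, 952 and 971 peaks on chromosome III in replicates 1, 2 and 3.

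The strongest sites of the centre, right arm and left arm were found at nearly the same places in each replicate. The first centre site was number 1 of the whole combined list, at III:3867312-3867773, and was numbered 1, 1 and 2 in replicates 1, 2 and 3. Sites at III:7854425-7854852 and III:4899665-4900127 followed as combined numbers 5 and 7, numbered 4, 5 and 3 and 10, 6 and 14 in replicates 1, 2 and 3. These 3 sites stood among the first 14 peaks of every replicate. The remaining 5 of the first 8 in the centre had combined numbers from 21 to 47. The site at III:5678926-5679250, number 25, was placed most alike, at 28, 24 and 28. The site at III:8043731-8044097, number 35, was placed least alike, at 13 in replicate 1 but 73 and 52 in replicates 2 and 3.

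The right arm opened with combined number 4, at III:10758937-10759374, which was numbered 5, 2 and 5 in replicates 1, 2 and 3. Number 10, at III:13643447-13643829, was 18, 8 and 8, and number 13, at III:12612261-12612830, was 9, 20 and 19. All 3 were thus within the first 20 peaks of each replicate. Number 27, at III:12904909-12905275, differed more, with 63 in replicate 1 against 12 and 24 in replicates 2 and 3. Behind these, the next sites of the right arm were number 94, at III:10407225-10407556, and then number 150, at III:13061058-13061401. The latest of its first 8, number 204, lay 9.4 kb from number 150, at III:13070404-13070779.

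The left arm had no site among the first 10, and some of its first 8 sites lay close together. Number 15, at III:1924994-1925603, was numbered 17, 15 and 23 in replicates 1, 2 and 3. It was the third of 4 strong intervals within 5.61 kb, with number 109 at III:1921154-1921638, number 138 at III:1923511-1923917 and number 306 at III:1926427-1926766. Their replicate numbers ran from 15 to 419, so each replicate placed all 4 among its first 500 peaks. Numbers 58 and 114, at III:3456235-3456593 and III:3460085-3460403, formed another pair 3.83 kb apart. The pair was numbered 45, 57 and 95 and 204, 161 and 53 in replicates 1, 2 and 3, so replicate 3 reversed their order. Numbers 68, 136 and 142, also among the first 8, lay 62.0, 61.7 and 247 kb from the nearest site among the first 500. In the right arm, numbers 13, 150, 192 and 204 of the first 8 also had such a site within 8.03 kb. There, numbers 4, 10, 27 and 94 lay 41.6, 177, 30.3 and 190.5 kb from one. Number 306 was added after its values were seen, being outside the first 8.

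Over these 24 sites, no replicate number was later than 350. The highest of a site's 3 replicate numbers was a median of 2.04 times the lowest, and at 3 sites (27, 35 and 150) it was 5 times or more. The midpoint of the replicate interval lay a median of 7 bp from the combined one and at most 80 bp from it. The sites were chosen by their combined number, which comes from the same ChIP samples, so the high places in the replicates are a description.

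**Figure D1:**
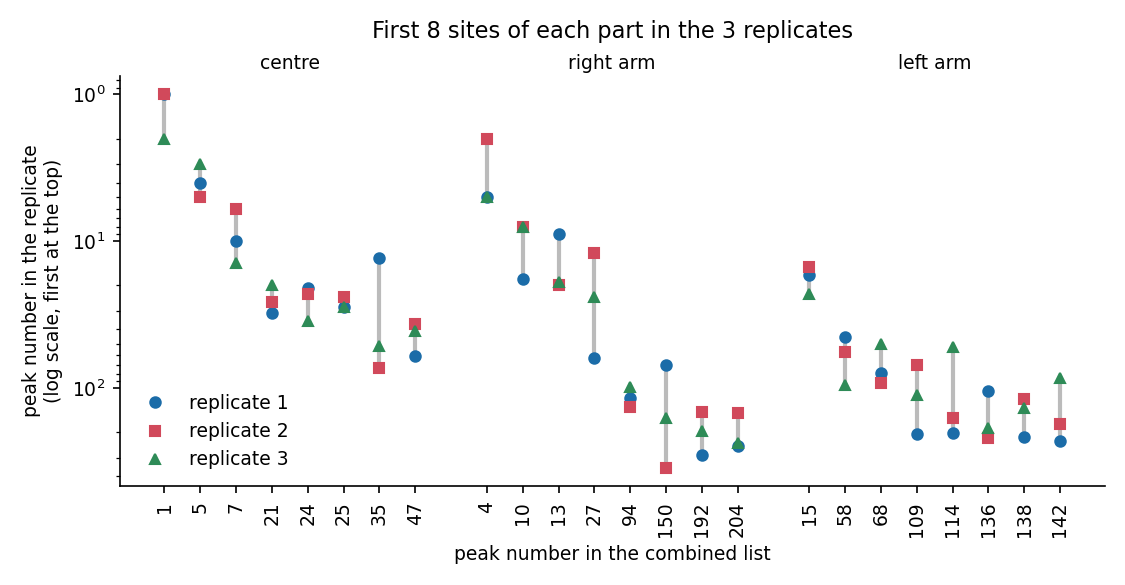
Peak numbers of the first 8 sites of the centre, right arm and left arm of chromosome III in ChIP replicates 1, 2 and 3, on a log scale with the first peak at the top, against the combined peak number; grey lines span the 3 replicates. The 24 sites stay within the first 350 peaks of every replicate, and 3 sites (27, 35 and 150) have a highest number 5 times or more the lowest.

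In the combined list, 5 of the first 10 peaks lay on III and 0 on X, and 21 of the first 100 lay on III and 29 on X. The first 10 peaks included 5, 5 and 4 from III in replicates 1, 2 and 3, and the first 100 included 20, 21 and 22. Of the 990 sites, 168 (17.0%) were among the first 1000 combined peaks and 88 (8.89%) among the first 500, against 16.6% and 8.29% of all combined sites. X had 220 of the first 1000 and 114 of the first 500. III thus supplied 16.8% of the first 1000 peaks and 16.3% of the later ones (Fisher's exact test, two-sided, p = 0.709, adjusted p = 0.827 over 7 tests by Benjamini-Hochberg). The difference was 0.455 percentage points. In the replicates' own top lists it was −0.265, 1.45 and 0.713 points in replicates 1, 2 and 3, so replicate 1 had the opposite sign.

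The median place in the combined list was close in the centre and the arms. The median combined peak number was 3055 in the centre, 2892 in the right arm and 2950 in the left arm. The shares among the first 1000 were 16.0% (96 sites) in the centre, 16.8% (40) in the right arm and 20.9% (32) in the left arm. The emptiest stretch of the left arm held 11 of its 32 sites among the first 1000. This was the bin from 1 to 2 Mb, which had the fewest sites of any bin of III, 29, so that 37.9% of them were among the first 1000. Of those 11 sites, 4 were the group of strong intervals within 5.61 kb. The bin from 11 to 12 Mb had 53 sites, of which 5 (9.43%) were among the first 1000 and the best was number 509. The shares of these bins were the highest and the lowest of any bin of III, and their difference was not tested.

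Sites were denser in the centre of chromosome III than in its arms. The centre held 60.5% of the sites on 48.0% of the length, 90.5 sites per Mb against 54.6 in the arms, a ratio of 1.66 (exact 95% interval 1.46 to 1.89; exact two-sided binomial test, p = 3.8e-15, adjusted p = 2.6e-14). In the top lists the centre had 90.9, 89.3 and 87.3 peaks per Mb and the arms 54.2, 50.4 and 54.9 in replicates 1, 2 and 3. The groups of values did not overlap, and the ratio was 1.68 ± 0.0900 (SD, n = 3). The binomial tests count neighbouring sites as independent, so their p-values are too small. No p was computed over the replicates, since an exact two-sided sign-flip test of 3 could not go below 0.25. The end of the last interval deposited for III, at 13781298, served as its length.

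The arms themselves were unequal. The right arm held 69.2 sites per Mb and the left arm 41.1, a ratio of 1.68 (exact interval 1.37 to 2.07; exact two-sided binomial test, p = 4.7e-07, adjusted p = 8.3e-07). In the top lists the right arm had 69.5, 66.3 and 69.2 peaks per Mb, and the left arm 40.1, 35.8 and 41.7, in replicates 1, 2 and 3. All 3 right-arm values exceeded all left-arm values, with a mean ratio of 1.75 ± 0.0975 (SD, n = 3). The last 0.5 Mb of the right end held 49 sites and the first 0.5 Mb of the left end 20.

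Along the chromosome, the counts climbed at the left limit and fell less evenly on the right. The bins from 1 to 2 Mb and from 2 to 3 Mb held 29 and 34 sites, and the bin from 3 to 4 Mb, which contains the limit, held 83. Within the centre the bins from 5 to 6, 7 to 8 and 8 to 9 Mb were the fullest, with 102, 101 and 99 sites. Between them the bin from 6 to 7 Mb dropped to 72, and the bin from 9 to 10 Mb, still in the centre, held only 63. From 9 to 10 Mb the top lists had 70, 60 and 56 peaks in replicates 1, 2 and 3, and from 8 to 9 Mb they had 102, 109 and 104, so the drop was present in each replicate. The last bin, from 13 Mb to the end, is only 0.781 Mb long, so its 69 sites stand for 88.3 per Mb. The replicates spread most in the bin from 7 to 8 Mb, with 112, 92 and 99 peaks.

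**Figure D2:**
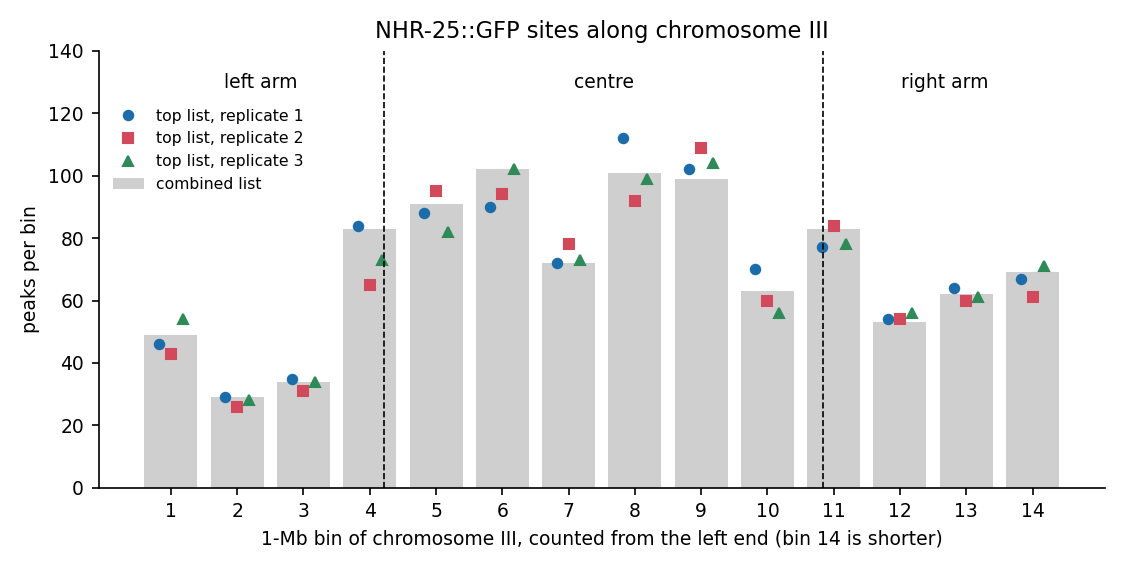
Number of combined sites (grey bars) and of top-list peaks of ChIP replicates 1, 2 and 3 (points) in each 1-Mb bin of chromosome III, the last of which is 0.781 Mb long, with dashed lines at the limits of the centre. The bins of the left arm before the limit hold 29 to 49 combined sites, those of the right arm beyond the limit 53 to 69 (69 in the short last bin), and the fullest bins of the centre 99 to 102.

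The sites next to the limits were as follows. On the left the last arm site was number 4037, at III:3704964-3705403, and the first centre site number 5892, at III:3734862-3735301. Number 5892 was at 3710 in replicate 3 but at 19687 and 20754 in replicates 1 and 2. On the right the last centre site was number 1526, at III:10339141-10339608, and the first arm site number 840, at III:10357795-10358028. Both were in every top list. Number 1526 overlaps number 1034, at III:10339141-10339549, and both took the numbers 1046, 773 and 1051 in replicates 1, 2 and 3. Its places in the top lists are thus those of peaks that number 1034 also meets.

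The centre's excess was seen among strong peaks and turned round among weak ones. Of the first 1000 peaks of each replicate that lay on III, 59.4 ± 3.78% were in the centre (SD, n = 3), and at numbers 3001 to 6029 the share was 61.3 ± 3.06%. Below the top lists it fell step by step. It was 51.8 ± 3.56% at 6030 to 12000, 43.5 ± 2.18% at 12001 to 20000 and 39.2 ± 1.58% from 20001 on, below the centre's 48.0% of the length. Over all peaks below the top lists, the ratio of centre to arm density was 0.802, 0.934 and 0.805 in replicates 1, 2 and 3, so every replicate was above 1 in its top list and below 1 beneath it. The left arm gained most, with 14.8 ± 2.95% of the peaks at 3001 to 6029 and 30.5 ± 2.20% from 20001 on. The ratio of right to left arm stayed above 1 below the top lists, at 1.14, 1.22 and 1.11. Weak calls reach false discovery rates of 0.843, 0.990 and 0.888 in replicates 1, 2 and 3, and whether they are binding was not tested.

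**Figure D3:**
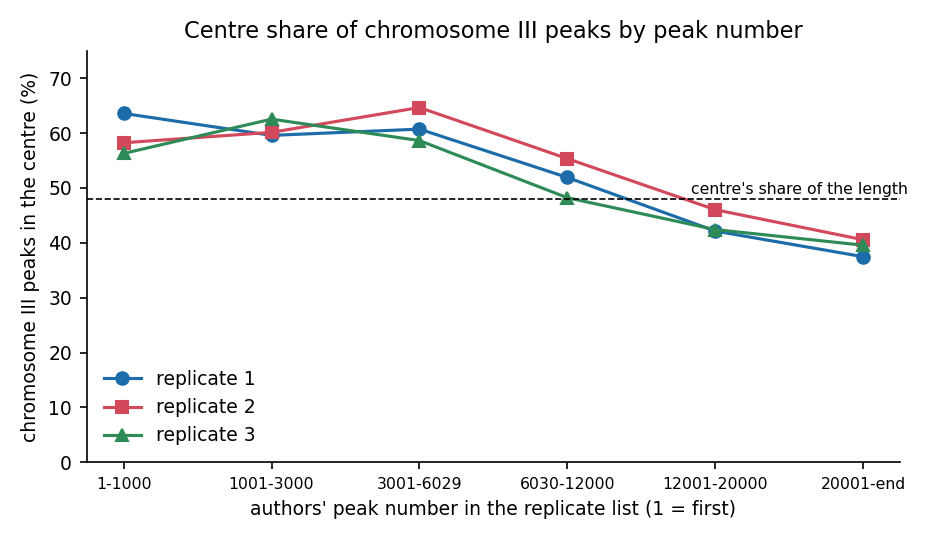
Percentage of the peaks of chromosome III that lay in the centre, for successive ranges of peak number in ChIP replicates 1, 2 and 3, with the centre's share of the length as a dashed line. The share is 56.3 to 64.7% through number 6029 and 37.5 to 40.6% from 20001 on.

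Other chromosomes did the same in part. Their parts were set at the same fractions of length as on III. The ratio below the top lists averaged 0.978 on I, 0.992 on II, 0.850 on IV, 1.08 on V and 0.909 on X, beside 0.847 ± 0.0754 on III (SD, n = 3). The mean of III thus lay within 1 SD of that of IV, and the differences between chromosomes were not tested. On IV and X the ratio was below 1 in every replicate. In replicate 2 it was 1.03 on I, 1.11 on II and 1.26 on V, and in replicate 1 it was 1.01 on V.

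Chromosome III had 71.8 sites per Mb in the combined list, the highest value of the 6 nuclear chromosomes, but X was close with 67.7. In the top lists III had 71.8, 69.1 and 70.5 peaks per Mb, and X had 66.9, 68.8 and 68.7, in replicates 1, 2 and 3. In the arms the order was the other way, with 54.6 sites per Mb on III and 63.5 on X. These differences between III and X were not tested. The combined density of III was 1.29 times that of I, II, IV and V together (exact interval 1.20 to 1.38; exact two-sided binomial test, p = 5.3e-12, adjusted p = 1.9e-11). The ratio was 1.28, 1.24 and 1.26 in the top lists of replicates 1, 2 and 3 and 1.33, 1.33 and 1.31 with all their peaks. By chromosome, the combined density was 64.6 sites per Mb on I, 62.5 on II, 52.5 on IV and 47.4 on V. In the arms, the density of III was 1.40 times that of the other 4 autosomes (exact interval 1.25 to 1.57). The exact two-sided binomial test gave p = 1.2e-08 (adjusted p = 2.9e-08). That pooled ratio covers unequal chromosomes, whose arms had 47.6 sites per Mb on I, 45.2 on II, 42.5 on IV and 25.4 on V. In the centres the ratio was 1.22 (exact interval 1.12 to 1.34; exact two-sided binomial test, p = 1.5e-05, a test added after the values were seen). Single chromosomes came close to it: the centre of I had 83.0 sites per Mb and that of II 81.2, beside 90.5 on III.

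The right arm was the fuller on III, II and X and the emptier on I, IV and V. The ratio of right to left arm density was 1.68 on III, 2.69 on II, 1.36 on X, 0.821 on I, 0.608 on IV and 0.605 on V. The inequality of arms is thus no feature of III alone.

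**Figure D4:**
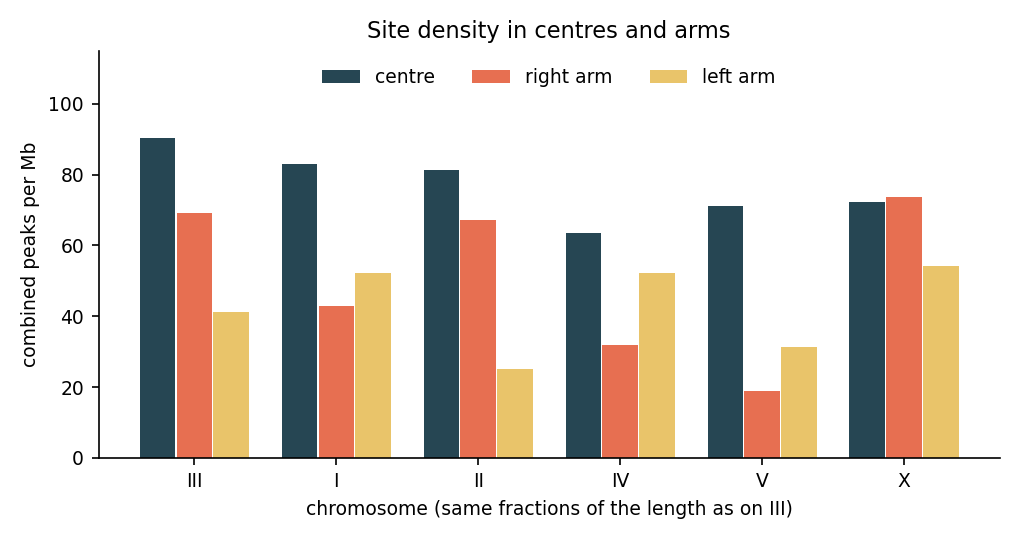
Combined sites per Mb in the centre, right arm and left arm of chromosome III and of the other chromosomes, whose parts were set at the same fractions of their length. The centre of III has 90.5 sites per Mb, its right arm 69.2 and its left arm 41.1; the right arm exceeds the left on III, II and X.

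The recovery of chromosome III sites in the replicates showed no detectable difference from that of sites elsewhere. All 990 overlapped a peak in at least 1 full replicate list, and 958 (96.8%) did so in all 3, against 96.0% of all combined sites. The combined list comes from the same ChIP samples, so the overlaps themselves are a description. In every top list there were 570 (57.6%, exact Clopper-Pearson 95% interval 54.4 to 60.7%, which covers counting error only), against 56.9% of all combined sites. A further 229 sites were in 2 top lists, 168 in 1 and 23 (2.32%) in none, where the share over all combined sites was 2.37%. Replicates 1, 2 and 3 had 789, 758 and 789 of the 990 in their top lists. The share in every top list was 57.6% on III and 56.7% on the other chromosomes (Fisher's exact test, two-sided, p = 0.648, adjusted p = 0.827).

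Between centre and arms no difference was detected either, at 57.6% (345 of 599) and 57.5% (225 of 391; Fisher's exact test, two-sided, p = 1, adjusted p = 1). The right arm had 61.3% (146 of 238, exact interval 54.8 to 67.6%) and the left arm 51.6% (79 of 153, 43.4 to 59.8%). The difference between the arms was not tested. Replicate 1 contained 84.9% of the right-arm sites and 72.5% of the left-arm sites in its top list. In replicate 3 the values were 81.1 and 80.4%, and in replicate 2 they were 77.7 and 73.9%. The arms thus stood furthest apart in replicate 1.

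Recovery followed the place in the combined list. That order comes from the same ChIP samples, so high recovery of early peaks was partly built in and is a description. All 168 sites among the first 1000 were in every top list. At numbers 1001 to 2000 it was 162 of 168, at 2001 to 3000 it was 133 of 161, and at 3001 to 4000 it was 75 of 173. Only 20 of 156 and 12 of 164 remained at 4001 to 5000 and 5001 to 6029. The share on III lay 3.82 percentage points or less from that of the other chromosomes in each range, and none of the 6 ranges passed the test (Fisher's exact test, lowest p = 0.127, lowest adjusted p = 0.663). Between centre and arms the lowest of the 6 was p = 0.210 (Fisher's exact test, adjusted p = 0.687), at 2001 to 3000, where the centre had 86.0% and the arms 77.9%. That comparison pools the arms, which were not tested against each other. From 3001 on, the 3 ranges had 20 of 42, 5 of 32 and 5 of 38 sites of the right arm in every top list. The left arm had 7 of 25, 0 of 27 and 0 of 22. At 1001 to 2000 the left arm was higher, with 20 of 20 against 43 of 45.

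**Figure D5:**
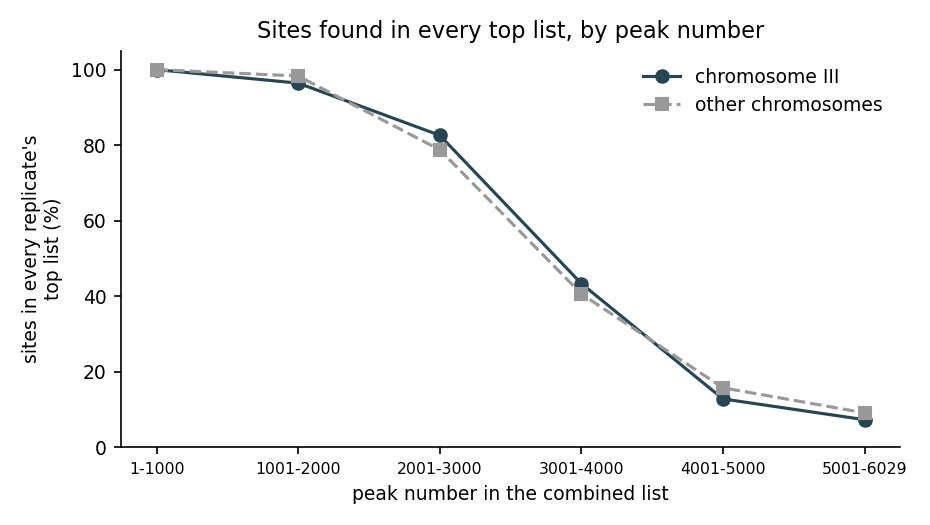
Percentage of combined sites that overlapped the top list of every ChIP replicate, by combined peak number, for chromosome III and for the other chromosomes. Both lines go from 100% in the first 1000 to 7.32% on III and 9.13% elsewhere in the last range. The combined order comes from the same ChIP samples, so the fall is a description.

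A few sites were placed very differently by the replicates. The widest difference was at III:8125220-8125659, combined number 2533, which was 735 and 3737 in replicates 2 and 3 but 27242 in replicate 1. Next came III:3978417-3978856, numbered 1134, 18535 and 3591, and III:5550027-5550466, numbered 2818, 1851 and 23346, in replicates 1, 2 and 3. Each replicate was thus the odd one at 1 of these 3 sites. The other two were III:3811632-3811798, at 642, 930 and 7774, and III:5943783-5943893, at 11802, 1539 and 1004. The first of these overlaps combined number 692, at III:3811403-3811684, which was numbered 642, 930 and 558. Its numbers in replicates 1 and 2 are thus those of peaks that number 692 also meets, with midpoints 164.5 and 122.5 bp away. Its spread therefore does not show that the replicates placed this site differently. All 5 lie in the centre. Over the 958 sites found in all full lists, the highest number was a median of 2.33 times the lowest, beside 2.33 on the other chromosomes, and 116 sites (12.1%) exceeded 5 times, against 11.2% elsewhere.

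The strongest sites with no overlap at all in a replicate were number 3462, at III:11816453-11816892, and number 4192, at III:12218474-12218913, both missing from replicate 2. Number 4356, at III:5027087-5027526, was missing from replicate 3. In the other replicates these sites had numbers from 2510 to 4724, so a site within 1 replicate's top list could be wholly uncalled in another.

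The share of III regions with a close neighbour was near that over all combined regions. Of 946 regions of III, 380 (40.2%) lay within 2000 bp of another, midpoint to midpoint, against 42.2% of all combined regions. It was 38.6% on I, 44.0% on II, 43.5% on IV, 43.1% on V and 43.7% on X, and these differences were not tested. Within III the share was 45.4% in the centre (257 of 566), 36.2% in the right arm (83 of 229) and 26.5% in the left arm (40 of 151), in the same order as the densities. The median distance to the nearest region was 2288 bp in the centre, 3386 bp in the right arm and 4296 bp in the left arm.

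The densest 30-kb window ran from 3786515 to 3812782, just inside the left limit, with 13 regions and 15 peaks. Top lists had 16, 13 and 10 regions there in replicates 1, 2 and 3. Its best sites were number 100, at III:3801302-3801720, numbered 99, 123 and 114, and number 217, at III:3812291-3812782, numbered 101, 356 and 347. Weaker sites of the window varied in how alike they were placed. Number 3416, at III:3799136-3799575, was 4170, 3924 and 4122 in replicates 1, 2 and 3, whereas number 5021, at III:3797642-3798081, was 2573, 9713 and 17676; both were picked after their values were seen. The next window, from 7271073 to 7301164, had 12 regions, all at the ceiling but 0 among the first 500, and its best was number 542. Its top-list regions numbered 11, 11 and 10. A window of 10 regions from 8780368 to 8809875 was the strongest of the 3, with 4 regions among the first 500. Its best interval, number 69, at III:8801416-8802364, was 949 bp wide and was numbered 50, 76 and 106 in replicates 1, 2 and 3. Where 2 combined peaks overlap, they can meet the same replicate peak, so peaks in such windows are not independent.

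The longest stretches without a combined site were 2 in the centre and 1 in the left arm. From 9054192 to 9228108 there were 174 kb without a site, with 2, 3 and 2 top-list peaks of replicates 1, 2 and 3. From 6625626 to 6797890 there were 172 kb, with 0 top-list peaks in any replicate and 8, 9 and 11 peaks in their full lists. The gap of 140 kb in the left arm, from 1950541 to 2090773, had 1, 0 and 0 top-list peaks but 38, 35 and 42 peaks in the full lists. It was bordered by strong sites, number 435 at III:1950267-1950540 and number 550 at III:2090774-2091031, and began 23.8 kb after the group of 4 strong sites. The longest gap of III was the shortest such maximum of the 6 chromosomes, which ranged elsewhere from 231 kb on X to 892 kb on V. III was also the shortest of the 6, at 13.8 Mb, and the densest, at 71.8 sites per Mb. Whether its gaps differ beyond that was not tested. Of 10 gaps over 100 kb on III, 6 were in the left arm, 4 in the centre and 0 in the right arm.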

How the data were processed

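The 3 ChIP peak lists and the combined list were used. Per the file headers, positions are on WormBase WS220, and SPP with the IDR procedure is named as the source of each peak. The aligner, filters, control, IDR threshold and way of combining were not given in the sources used here. Deposited values are false discovery rate estimates as −log10, a unit read from the values. Their ceiling was 3.96 in the combined list, and 3.93, 3.73 and 3.92 in replicates 1, 2 and 3. Read counts are lacking, and the depth is unknown.

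Overlap meant at least 1 bp, and a site took the lowest number of the replicate peaks it met. Densities were compared by exact two-sided binomial tests and shares by Fisher's exact test, with Benjamini-Hochberg adjustment over 7 tests (Python 3.11.15, SciPy 1.17.1). Scripts were tested on simulated lists. Sites named were the first 8 by combined number in the centre and each arm, those nearest the limits, the 3 widest regions, longest gaps, densest 30-kb windows and strongest sites absent from the combined list, the 5 most differently numbered, and the 3 first that a full list lacks. The members and lists were chosen with earlier results of these data known. Motifs were planned only with a WS220 genome and were not analysed.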

Additional observations from a re-analysis of the deposited data

Results flagged for a closer look

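The contrast of right with left arm had opposite signs on different chromosomes in every replicate. In the top lists the ratio of densities averaged 1.75 on III, above 1 in all 3 replicates, beside 0.862 on I, 0.603 on IV and 0.638 on V, below 1 in all 3. It was also above 1 in all 3 replicates on II, with a mean of 2.61, and on X, with a mean of 1.23. The difference between chromosomes was not tested.

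Of 587 top-list peaks of replicate 1 on chromosome III that overlapped the top lists of replicates 2 and 3, 13 (2.21%) were absent from the combined list, against 2.72% (96 of 3529) over the 6 nuclear chromosomes. All 13 were in the centre, which held 61.0% of the 587; the difference was not tested. Of the 13, 5 were at the ceiling in every replicate. The strongest lay at III:6172922-6173351, numbered 1605, 1685 and 1741 in replicates 1, 2 and 3, at III:4795945-4796374, numbered 1932, 1493 and 1710, and at III:4720781-4721210, numbered 1512, 1510 and 2439. Their midpoints were 2956, 39023.5 and 977 bp from the nearest combined site. Over the 13 the median was 2956 bp, and 2 were within 1 kb.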

How the results depend on the processing

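The 11 results were recomputed under 91 alternatives. In 66 the sign and the outcome of the test were unchanged, or an untested value stayed within its interval or replicate spread. For each mean over replicates, the 3 alternatives were bound to count as unchanged. Leaving out 1 of 3 replicates cannot move a mean by as much as their SD, so these alternatives say nothing about stability. Those for peaks below the top lists, for the window, for the outermost 1 Mb and for replicate means were chosen after seeing the data.

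The right arm stayed denser than the left under all 16 alternatives (ratio 1.11 to 1.85), as did III against the other autosomes (1.24 to 1.33 under 9) and its arms against theirs (1.33 to 1.48 under 10). The centre-to-arm ratio was 1.46 to 1.77 in 11 of 17. It was 0.921 and 0.914 with all peaks of replicates 1 and 3, 1.05 with all of replicate 2 (exact binomial p = 0.0743), and 0.802, 0.934 and 0.805 with those below the top lists; the cause was not tested. Means over replicates ranged from 1.63 to 1.72 for this ratio and from 1.70 to 1.79 for the arms with 1 replicate left out.

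The share of III sites in every top list was 37.0% at a reciprocal overlap of 50%, 96.8% with all deposited peaks, 32.4% with 3014 peaks per replicate, 34.7% with peaks at the ceiling, 93.0% for the first 3014 combined peaks, and 64.8 to 66.1% with 1 replicate left out, where fewer lists must be met. Its difference from the other chromosomes turned to −0.320 with 3014 peaks and −0.815 points at the ceiling, and leaving out 1 replicate gave −0.679 to 0.750. Centre minus arms turned to −1.03 (reciprocal overlap) and −0.693 (all peaks), and lay between −3.26 and 1.08 with 1 left out. The difference of the first 1000 peaks from later ones turned to −0.265 in replicate 1. None of these differences passed the test in any setting. Regions with a neighbour made up 15.1% at 1000 bp, 68.7% at 5000 bp and 29.3% for the first 3014 peaks.

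No paired analysis was possible because inputs, which carry the numbers of the ChIP replicates, were not analysed here. Motifs were not run. Strength beyond the ceiling, and precision without known depth, cannot be judged.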

Other observations

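Interval widths on chromosome III followed the peak number. Of the 990 sites, 643 (64.9%) were exactly 440 bp wide, 311 were narrower and 36 wider. Among the first 1000 peaks only 0.595% of the sites of III had that width, and their median was 298 bp. The share was 29.8% at numbers 1001 to 2000, with a median of 221 bp, and 97.0% at 5001 to 6029. Midpoints moved less at strong sites: a median of 13.5, 14.2 and 16 bp in replicates 1, 2 and 3 for the first 1000, and of 34, 37 and 43 bp at 5001 to 6029.

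The 3 widest regions of III were all in the right arm. The region at III:10904064-10905592, 1529 bp, was 1 interval in each replicate, with best numbers 1749, 292 and 364 in replicates 1, 2 and 3. The other two lie 343 bp apart, at III:12425526-12426941, 1416 bp, and III:12427284-12428558, 1275 bp. Their best numbers were 2402, 776 and 4908, and 811, 2005 and 5127, so replicate 3 placed both later than replicates 1 and 2 did.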
